A study of Drosophila melanogaster with 4 samples.

Results

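Of 5357 Su(Hw) peaks in the list, 217 lay outside the 6 assembled chromosome arms (2L, 2R, 3L, 3R, 4 and X), on scaffolds of heterochromatin or of unknown place. They were taken by the name of their sequence, those ending in Het and the collections U and Uextra, with no use of a measured value. The heterochromatic scaffolds held 36 of them, U held 35 and Uextra held 146. The other 5140 peaks lay on the arms. The list came from chromatin immunoprecipitation and sequencing (ChIP-seq) of whole white prepupae of Drosophila melanogaster, with 2 libraries made with an affinity-purified rabbit polyclonal antibody against Su(Hw) and 2 of input DNA. All 4 libraries came from the strain Y cn bw sp. Its labelled alleles on the X are y[1] and oc[R3.2]. On the second chromosome it carries Gr22b[1] and Gr22d[1] with cn[1], CG33964[R4.2], bw[1] and also sp[1]. On the third it carries LysC[1] and lab[R4.2], besides MstProx[1], GstD5[1] and Rh6[1]. The labels give no age beyond the stage, and they do not say whether replicates 1 and 2 came from separate collections of animals.

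The product of suppressor of Hairy-wing, Su(Hw), binds DNA through an array of zinc fingers. It is best known from the insulator carried by the gypsy retrotransposon, whose effects on nearby genes depend on it. Insulators limit the action of enhancers and the spread of chromatin states, and many Su(Hw) sites in the genome lie away from gypsy. Heterochromatin is the condensed, repeat-rich DNA around the centromeres. In release 5 of the fly genome its assembled pieces were attached to an arm by name (2RHet, 3LHet and so on). U and Uextra are strings of scaffolds whose place was unknown, laid end to end, so a distance within them can run across unrelated pieces. Whether the ends of these pieces limit peak widths was not tested, since scaffold lengths were not used. Genes, repeats and base sequence under these peaks were not analysed here, since no genome of release 5 was used.

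The 1 list held no values per library, so the depth of each library is unknown and no difference below could be tested against the spread between replicates. Shares are given with Wilson 95% intervals and medians with exact 95% intervals from the ranks. These intervals cover only counting error and assume independent peaks, which are not biological replicates.

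The peaks off the arms were narrow. Their median width was 551 bp (95% interval 516 to 583), against 2024.5 bp on the arms, and widths ran from 202 to 8199 bp. The 3 groups were alike in this middle value, with 558 bp on the heterochromatic scaffolds, 524 bp on U and 553.5 bp on Uextra. At the broad end the heterochromatic scaffolds and Uextra parted. Peaks of 2 kb or wider made up 5 of 36 on the heterochromatic scaffolds (13.9%, interval 6.08 to 28.7%) and 1 of 146 on Uextra (0.685%, interval 0.121 to 3.78%). U had 2 of 35 (5.71%, interval 1.58 to 18.6%), which overlaps both. All 3 shares were below the 50.4% of the arm peaks. Peaks of 1 kb or wider numbered 23 of 217 off the arms (10.6%, interval 7.17 to 15.4%), against 64.5% of the whole list. Widths of 400 to 799 bp held 53.9% of the peaks off the arms and 12.3% of those on the arms.

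Scores, the peak caller's own value for each peak, ran from 6.48 to 779.77 off the arms with a median of 57.9 (interval 51.6 to 66.4). On 3LHet the 17 peaks scored from 10.36 to 664.24 with a median of 76.6. On 2RHet the 10 peaks scored from 22.15 to 773.58 with a median of 37.3. The 7 peaks of 3RHet scored from 13.7 to 660.67 with a median of 31.1. Each of these 3 scaffolds thus held 1 peak of 660.67 or more among many weak ones. The median was 56.8 on U (13.36 to 774.82) and 62.4 on Uextra (9.21 to 779.77). The single peak of 2LHet, at 357113-357749, scored 32.06, and the single peak of XHet, at 133152-133428, scored 6.48, the lowest value off the arms.

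**Figure D1:**
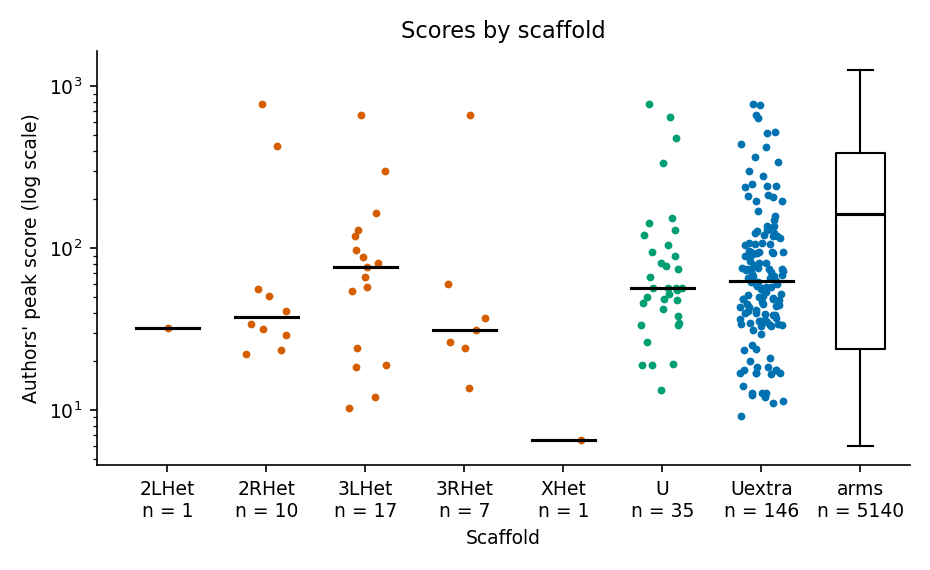
Authors' score (log scale) of each peak on the 7 scaffold sequences that held peaks, with a black line at each median, and a box for the arm peaks (quartiles, with whiskers to the extremes). The strongest peaks of 2RHet, 3LHet, 3RHet, U and Uextra reach scores of 660.67 to 779.77, while the scaffold medians lie between 6.48 and 76.6.

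The scores followed a common series of steps. The same values recurred throughout the list, and 407 scores were held by 4 or more peaks. They fell on the steps of −log10 of a Poisson probability, the chance of more than a whole number of reads over a background with a mean of 54.2. Of the 407 recurring scores, 390 (95.8%) lay within 0.01 of a step, where steps were 0.245 to 1.38 apart. The background mean was fitted to these same recurring scores by their median distance from a step, which was 0.00271. The best mean outside the close vicinity of the fitted one gave 0.112. On this reading each score on a step stands for a whole number, called the derived count below. It is inferred from the values: the labels do not state the scale, and neither the scale nor what part of a peak the number refers to was tested.

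Off the arms 206 of 217 scores were on a step (94.9%, interval 91.2 to 97.1%), against 70.1% of the whole list and 69.1% of the arm peaks (interval 67.8 to 70.3%). Values this close to a step make up 3.51% of the score range around these peaks. The share was high in each group, with 34 of 36 on the heterochromatic scaffolds, 34 of 35 on U and 138 of 146 on Uextra. It was also higher off the arms than on them in each of 7 classes of score. In the largest class, scores of 40 to 80, it was 94.4% of 71 peaks against 68.8% of 413. At scores of 160 to 320 it was 85.7% of 14 peaks, with an interval of 60.1 to 96.0% that spans the arm share of 64.5%. At scores of 5 to 10 there were only 2 peaks off the arms. MACS can score a peak against a genome-wide or a local background. Which settings were used, and why some scores leave the steps, was not tested.

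**Figure D2:**
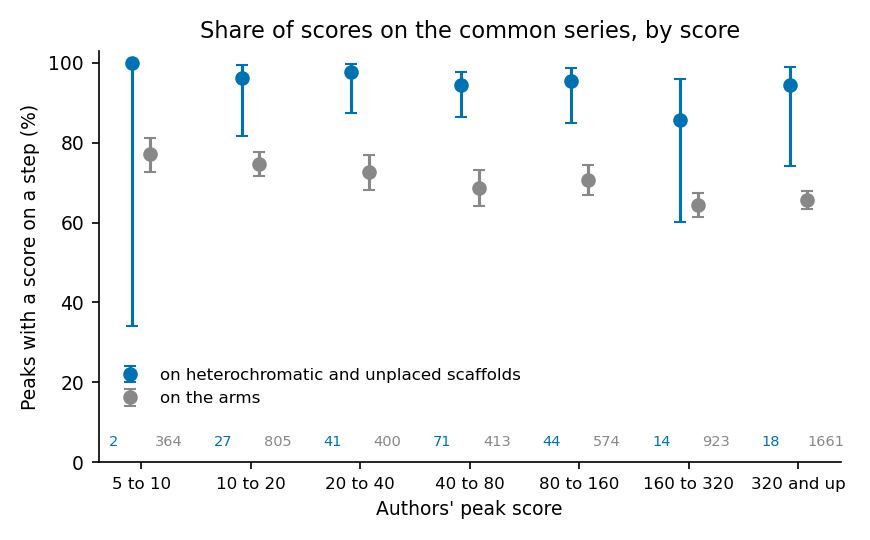
Share of peaks (percent, with Wilson 95% intervals) whose score lies within 0.01 of a step, by class of authors' score, with the number of peaks above the axis. The peaks off the arms lie above those on the arms in each class, at 94.4% against 68.8% for scores of 40 to 80, and with only 2 peaks off the arms in the lowest class. For scores of 160 to 320 the interval off the arms spans the arm share.

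For the 206 peaks on a step, the derived count ran from 94 to 937, or 1.74 to 17.3 times the background mean, with a median of 209.5 (3.87 times). The medians were 188 on the heterochromatic scaffolds, 208 on U and 216.5 on Uextra. The 3551 arm peaks on a step had a median of 327, 6.04 times the background, and reached 1122. The peaks off the arms were thus lower than the arm peaks as a whole, in derived count as in width.

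At a given width the order was the other way round. Each score was ranked among a fixed number of arm peaks, about 100, nearest to it in width (called arm peaks of like width). Off the arms 199 of 217 peaks (91.7%, interval 87.3 to 94.7%) scored above the median of those arm peaks, against 51.7% of the whole list. The median rank was the 94.6th percentile (interval 91.1 to 96.0). The ratio of each score to the median of its arm peaks of like width had a median of 2.66. At or above the 90th percentile were 133 peaks (61.3%, interval 54.7 to 67.5%), against 13.0% of the whole list. Below the 10th percentile were 4 peaks.

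Taken over the 3 groups, the difference was present in each of the 3 classes of width that held most of these peaks. From 200 to 399 bp, 51 peaks off the arms had a median score of 23.9 (interval 18.5 to 33.5) and 881 arm peaks one of 10.9 (10.7 to 11.1). From 400 to 799 bp, the medians were 62.1 (55.5 to 69.6) for 117 peaks and 20.5 (19.3 to 21.7) for 633 arm peaks. In derived counts this was a median of 217 against 132, on steps only. From 800 to 1599 bp, the medians were 183 (105 to 248) for 38 peaks and 70.2 (64.0 to 74.0) for 702 arm peaks. The ratio of medians was 2.2, 3.03 and 2.61 in these classes. Above them there were few peaks. The 6 peaks of 1600 to 3199 bp had a median of 148, with an interval of 74.0 to 775 that spans the arm median of 235.

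**Figure D3:**
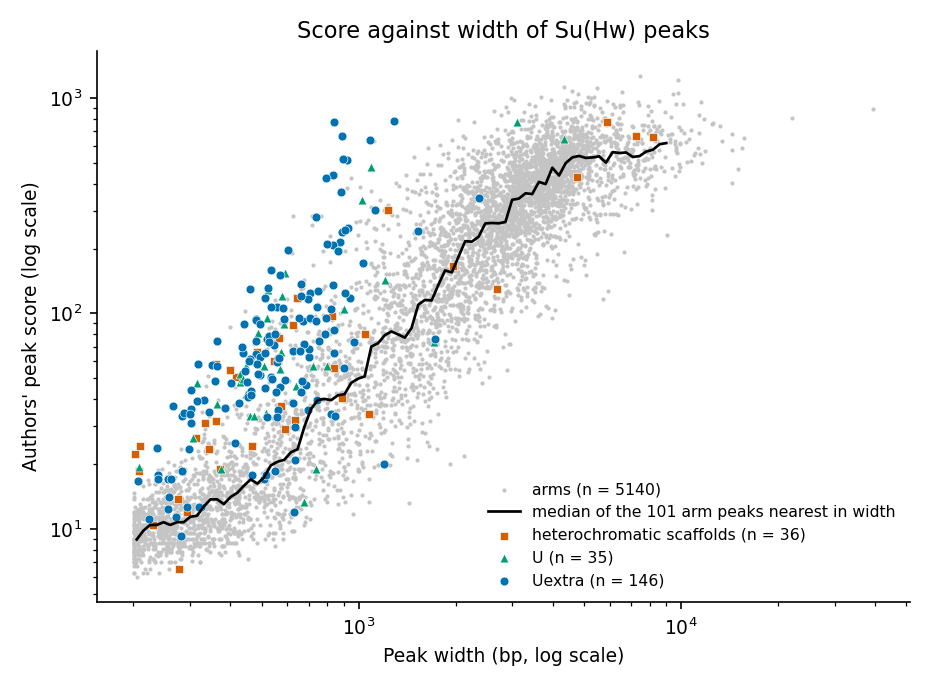
Authors' score against peak width (both log scales) for arm peaks (grey) and for the 3 groups off the arms, with the running median of the arm peaks in black. The peaks off the arms lie above the line in 199 of 217 cases, and the blue points at the upper left are 7 Uextra peaks under 1 kb wide with scores of 367.55 to 771.11.

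Taken over all widths, the groups off the arms differed in how far they stood above the arms. On Uextra the median rank was the 95.05th percentile (interval 92.1 to 97.0), with 136 of 146 peaks above the arm median. The ratio of each score to the median of its arm peaks of like width had a median of 3.01 there (interval 2.61 to 3.36). On U the median rank was the 97.0th percentile (88.1 to 99.0), with 32 of 35 above and a median ratio of 2.66 (2.03 to 3.53). On the heterochromatic scaffolds it was the 84.4th percentile (68.3 to 94.1), with 31 of 36 above and a ratio of 1.65 (1.31 to 2.44). The intervals of the percentiles overlap between the 3 groups, and those of the ratios do not between the heterochromatic scaffolds and Uextra. Among the heterochromatic scaffolds, 16 of 17 peaks on 3LHet, 7 of 7 on 3RHet and 7 of 10 on 2RHet were above, with 1 of 1 on 2LHet and 0 of 1 on XHet.

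**Figure D4:**
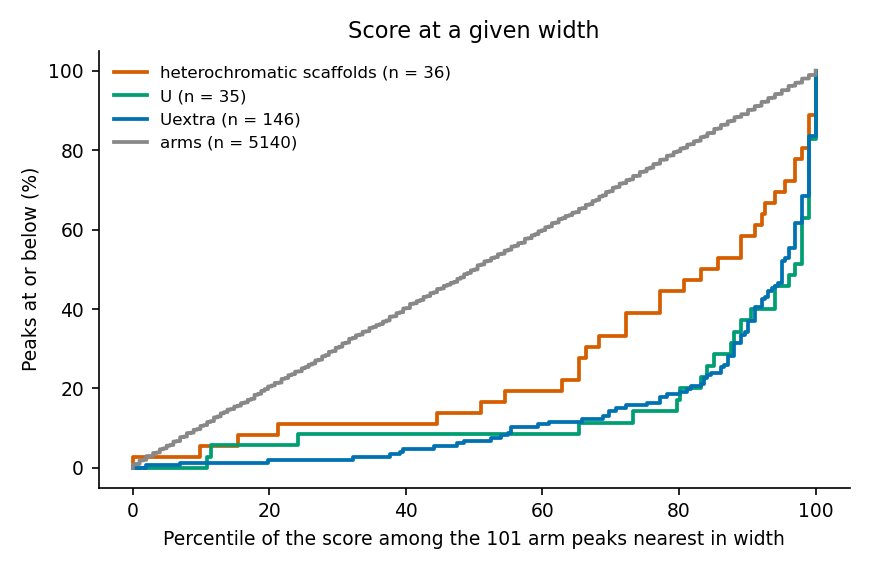
Cumulative share of peaks (percent) by the percentile of their score among arm peaks of like width, for the 3 groups off the arms and for the arm peaks themselves (near the diagonal by construction). The curves of U and Uextra stay low up to the 80th percentile, with medians of 97.0 and 95.05, and that of the heterochromatic scaffolds runs between them and the arms, with a median of 84.4.

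Close neighbours bear on this comparison, because many narrow arm peaks sit beside a stronger peak. Among arm peaks under 800 bp wide, 67.7% had another peak edge within 1 kb. In 94.1% of those cases the neighbour, or the stronger neighbour on either side, scored higher than the peak itself. Over all those cases the median ratio of that neighbour's score to the peak's own was 24.5. Off the arms 18 of 168 such peaks (10.7%) had a close neighbour. Set against arm peaks with no edge within 1 kb, 86.2% of the peaks off the arms (interval 81.0 to 90.1%) still scored above the median of like width, and the median rank was the 88.1st percentile. On the heterochromatic scaffolds alone, the share above that median had an interval of 58.9 to 86.2%. This was lower than the 71.3 to 93.9% against all arm peaks, though these intervals overlap. With close neighbours left out on both sides, the share for all groups off the arms was 88.1% of 194 peaks. This comparison was chosen after the values were seen.

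The strongest peaks were broad on some scaffolds and narrow on others. On the heterochromatic scaffolds the 4 peaks scoring 320 or more were broad. The strongest was 2RHet:368589-374472, 5884 bp wide with a score of 773.58 and a derived count of 932, at the 89.1st percentile for its width. It was followed by 3LHet:1281049-1288295, 7247 bp wide with a score of 664.24 (77.2nd percentile), and 3RHet:1519808-1528006, 8199 bp wide with a score of 660.67 (65.3rd percentile). The last was 2RHet:2628143-2632902, 4760 bp wide with a score of 430.53, at the 21.3rd percentile. These 4 lay within the range of arm peaks of their width. The next in score, 3LHet:1602337-1603566, named after its value was seen, was narrower, with 1230 bp and a score of 301.39 at the 97.0th percentile.

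On Uextra most strong peaks were narrow, and whether the ends of its pieces limit their widths was not tested. The strongest of all peaks off the arms was Uextra:1838931-1840217, which was 1287 bp wide, scored 779.77 and had a derived count of 937. The arm peaks of like width had a median score of 82.5, and none of them scored higher. Uextra:23539112-23539949, 838 bp wide, scored 771.11 (count 930), 17.8 times the median of like width, the largest ratio off the arms. The next ratios were 15.6 for Uextra:14899202-14900092 (score 667.82), 12.2 for Uextra:20304195-20305087 (score 520.54), 12.0 for Uextra:14575984-14576906 (score 518.29) and 10.7 for Uextra:25090357-25091146 (score 424.12). These 5 were 790 to 923 bp wide. Uextra:2836256-2837342 (1087 bp) and Uextra:22426322-22427151 (830 bp) scored 640.5 and 438.05, also above each of the arm peaks of like width.

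U held peaks of both shapes. U:6831311-6834402 was 3092 bp wide and scored 774.82, above each of the arm peaks of like width, and U:5685080-5689422, the widest peak of U with 4343 bp, scored 647.6 at the 84.2nd percentile. U:9905208-9906303 was 1096 bp wide and scored 476.1, 6.78 times the median of like width. The widest peak of Uextra, 179143-181502, had 2360 bp and a score of 342.72, which is not on a step.

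Counted by score, 18 peaks off the arms scored 320 or more, and 7 of them (38.9%, interval 20.3 to 61.4%) were under 1 kb wide. All 7 were on Uextra. On the arms 2 of 1661 such peaks (0.12%, interval 0.033 to 0.438%) were that narrow, the narrowest at 921 bp. With a width limit of 1500 bp the counts were 11 of 18 and 15 of 1661. These limits of score and width were chosen after the values were seen.

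Read the other way, widths at a given score were mostly smaller off the arms. Ranked by width among the same number of arm peaks nearest in score, the median peak off the arms was at the 2.97th percentile (interval 1.98 to 4.95) and had 0.464 times the median width. It was narrower than the median in 195 of 217 cases (89.9%, interval 85.1 to 93.2%), against 51.7% of the whole list. Taken over the 3 groups, the gap was wider at middle scores than at low ones. For scores of 10 to 20 the median width was 284 bp (256 to 373, 27 peaks), an interval that spans the 346 bp (335 to 362) on the arms. At scores of 5 to 10, with only 2 peaks off the arms, it was 279.5 bp against 257.5 bp. For scores of 40 to 80 it was 516 bp (480 to 558) against 1170 bp (1099 to 1219). For scores of 160 to 320 it was 900 bp (798 to 1230) against 2668 bp (2589 to 2734). The groups differed here too, with a median of 0.437 times the width of arm peaks of like score on Uextra and 0.702 times on the heterochromatic scaffolds. Among scores of 320 or more the order parted: the 4 peaks on the heterochromatic scaffolds had a median width of 6565.5 bp and the 10 on Uextra one of 892 bp, with 3955 bp on the arms.

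A few peaks were weak for their width. Uextra:720026-721223 was 1198 bp wide and scored 20.09, 0.247 times the median of arm peaks of like width, the lowest ratio off the arms. U:1533063-1533740 (678 bp, score 13.36) and U:587189-587928 (740 bp, score 18.89) had ratios of 0.45 and 0.509. On the heterochromatic scaffolds the lowest were 3LHet:57093-59776 (2684 bp, score 129.91) with 0.494 and 2RHet:307310-308389 (1080 bp, score 34.01) with 0.522.

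Off the arms most peaks had no other peak within 1 kb. Another peak edge lay within 1 kb of 23 of the 217 peaks (10.6%, interval 7.17 to 15.4%), against 42.4% of the whole list. Arm peaks weighted to the same classes of width had a share of 54.1%. On the heterochromatic scaffolds the share was 10 of 36 (27.8%, interval 15.8 to 44.0%), against 56.6% for arm peaks of the same classes. On U it was 2 of 35 and on Uextra 11 of 146 (7.53%, interval 4.26 to 13.0%). Distances on U and Uextra can cross from one scaffold to the next, and scaffold lengths were not used here.

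At 5 to 10 kb the heterochromatic scaffolds came close to the arms. Within 5 kb, 23 of 36 peaks (63.9%, interval 47.6 to 77.5%) had another, against 70.9% for arm peaks of the same classes, and within 10 kb 26 of 36 (72.2%, interval 56.0 to 84.2%), against 81.3%. On Uextra the share within 10 kb was 19.9% (interval 14.2 to 27.1%) and on U it was 14.3% (6.26 to 29.4%). The median distance to the nearest peak edge was 3.74 kb on the heterochromatic scaffolds, 52.5 kb on U, 46.0 kb on Uextra and 2.35 kb on the arms.

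**Figure D5:**
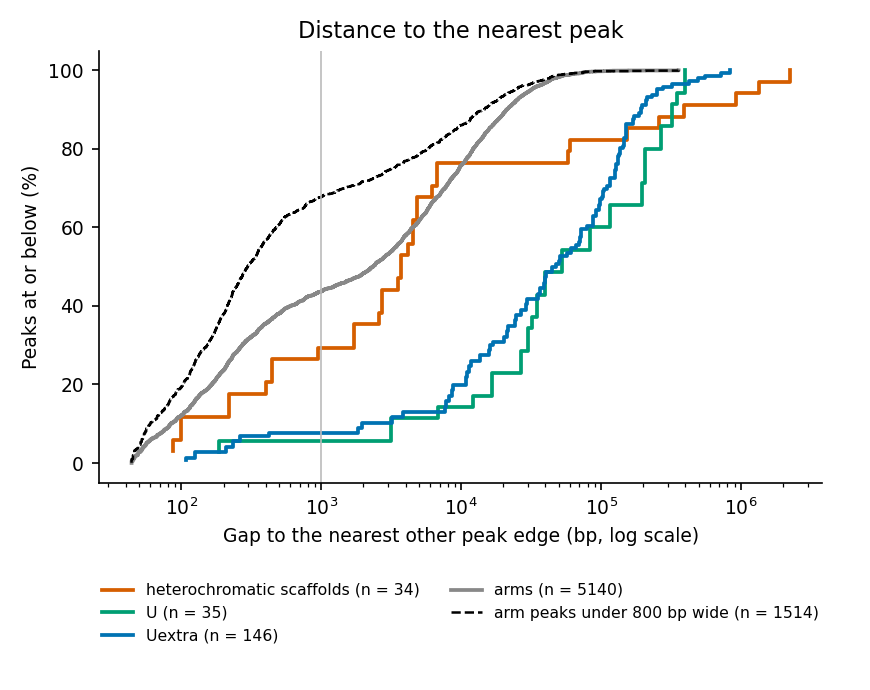
Cumulative share of peaks (percent) by the gap to the nearest other peak edge (bp, log scale), for the 3 groups off the arms, all arm peaks, and arm peaks under 800 bp wide (dashed), with a vertical line at 1 kb. The single peaks of 2LHet and XHet have no neighbour and are left out. At 1 kb the arms stand at 43.7%, the heterochromatic scaffolds below them, and U and Uextra lowest, at 5.71% and 7.53%.

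Peaks on the heterochromatic scaffolds were unevenly spread. In the 100 kb with the most peaks, 2RHet held 8 of its 10, 3LHet 6 of its 17 and 3RHet 4 of its 7. These are lower counts than on the 5 large arms, whose densest 100 kb held 15 to 22 peaks. Each of those arms held 900 to 1282 peaks, however, and a maximum over more peaks tends to be higher. On 2RHet the 8 peaks lay between 307310 and 403102, within 95.8 kb, while the first and last peak of the scaffold were 2587 kb apart. On 3LHet the 6 lay between 1505845 and 1603566, and a longer stretch of 345 kb, between 1279031 and 1624265, held 12 of the 17, out of 2490 kb from first to last peak. On 3RHet the 4 lay within 43.5 kb, between 1484545 and 1528006. Stretches were placed on the peaks themselves, so these counts are a description.

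Joining peaks with at most 1 kb between edges left 204 loci off the arms, of which 10 combined 23 peaks. No locus held more than 3 peaks, against up to 8 on the arms, where 5140 peaks gave more chances of a long run. The 3 runs of 3 peaks were 2RHet:312527-314805, with scores of 29.22, 55.59 and 31.58, 3LHet:1279031-1288295, with 88.57, 10.36 and 664.24, and Uextra:221346-224534, with 75.94, 12.02 and 9.21. The run on 3LHet was thus 1 strong peak with weaker ones beside it, and the scores of that on 2RHet lay between 29.22 and 55.59. On the heterochromatic scaffolds the closest pairs were 87 bp apart on 2RHet, 100 bp on 3LHet (56425-56992 and 57093-59776) and 1720 bp on 3RHet (1517540-1518087 and the strongest peak). Among the 23 peaks with a close neighbour, 1 (4.35%) had a neighbour scoring 10 times as high or more, against 35.8% of such arm peaks of all widths. Among those under 800 bp wide it was 1 of 18 (5.56%) off the arms, against 73.9% on the arms.

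The part of the arms nearest in the genome to the heterochromatic scaffolds is the 1 Mb at the centromere-facing end of the 5 large arms. It was taken by peak centre, back from the last peak on 2L, 3L and X. On 2R and 3R it was the first 1 Mb of coordinates. It held 70 peaks with a median width of 1159 bp (interval 688 to 2003) and a median score of 101.45 (49.9 to 156). Both lay between the values of the heterochromatic scaffolds (558 bp and 45.5) and of the other arm peaks (2033 bp and 164). Of the 70 peaks, 47 scored above the median of arm peaks of like width (67.1%, interval 55.5 to 77.0%). This lay between 49.8% in the rest of the arms and 86.1% (71.3 to 93.9%) on the heterochromatic scaffolds, each against all arm peaks. Against arm peaks with no edge within 1 kb, the interval for the heterochromatic scaffolds was 58.9 to 86.2%. The 70 peaks were not set against those arm peaks, so whether this order holds there was not tested. The arms did not all share the middle position of the centromere-facing peaks. On X 12 of 23 peaks were above the median, and on 2L 12 of 19. On 3R it was 15 of 19, on 3L 6 of 7 and on 2R 2 of 2. The 2 peaks of 2R had a median width of 3833 bp. The share of scores on a step did not follow this order: it was 62.9% (51.1 to 73.2%) in the centromere-facing 1 Mb, below the 69.2% in the rest of the arms, and 94.4% (81.9 to 98.5%) on the heterochromatic scaffolds.

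Exact ties in score were also frequent off the arms, where 208 of 217 peaks (95.9%, interval 92.3 to 97.8%) had the same score as another peak, against 71.8% of the whole list. Low scores tie more often, and the share on the arms ran from 60.3% at scores of 320 or more to 88.2% at 5 to 10. Within scores of 40 to 80 it was 97.2% off the arms and 70.7% on them. At scores of 320 or more it was 66.7% of 18 peaks off the arms, with an interval of 43.7 to 83.7% that spans the arm share. The steps were fitted to recurring scores, so ties are not independent of the steps. Sharing both score and width was rare, with 1 peak off the arms (0.461%) and 116 on them (2.26%).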

How the data were processed

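The deposited file was 1 peak list for the whole series, with a start, an end and a score per peak. The score is the authors' own value, written by MACS with 2 decimals, per the file columns, and the labels do not state its scale. Coordinates are 1-based on FlyBase release 5, per the file headers. BWA, MACS2, the build BDGP5 and CASAVA (1.7.0.2, also 1.7.0.3) are named, without roles, per the submitters' processing notes. How libraries were pooled, how the input was used and what threshold applied is not given in the sources used here.

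Width was end minus start plus 1. Scores were ranked among about 100 arm peaks nearest in log width, and widths likewise in log score. A background mean was fitted so that −log10 Poisson tail probabilities met the scores shared by 4 or more peaks. Both steps were tested on simulated data. Neighbours were counted by edge gap, and arm shares were weighted to classes of width starting at 200, 400, 800, 1600 and 3200 bp. No test was run, since the list holds no values per library.

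The peaks named are the 15 highest-scoring off the arms, the highest and widest of each scaffold, every peak of scaffolds with 5 or fewer, the 5 highest and 5 lowest for their width, runs of 3 or more and the closest pair on each heterochromatic scaffold. The members and lists were chosen with earlier results of these data known. The reading of scores as steps, widths at a given score and the centromere-facing 2 Mb were added after the values were seen. Calculations ran in Python 3.11.15 with SciPy 1.17.1, NumPy 2.4.6 and pandas 2.3.3, and plots in matplotlib 3.10.9.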

Additional observations from a re-analysis of the deposited data

How the results depend on the processing

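Of 44 alternative values, 23 stayed within the interval of the main value and 21 left it. The share of peaks off the arms scoring above arm peaks of like width was 86.1% without U and Uextra, 70.6% (34 peaks, interval 53.8 to 83.2%) for peaks above the median score of the list, 85.3% with peaks joined within 1 kb, and 86.2% against arm peaks with no edge within 1 kb. The median percentile was 84.4 without U and Uextra and 88.1 against arm peaks with no edge within 1 kb. The share with another edge within 1 kb was 16.9% without Uextra, 27.8% without U and Uextra and 0% for the 34 peaks above the median score when their neighbours were limited to such peaks too. With gaps of 200 bp, 5 kb and 10 kb it was 4.61, 21.2 and 27.6%, and on the heterochromatic scaffolds 11.1, 63.9 and 72.2%, by construction. Peaks above the median score had a median width of 925.5 bp and a median score of 339, and without U and Uextra the median score was 45.5. The share of broad peaks was 60.4% at 500 bp and 3.69% at 2 kb, by construction. The share of scores on a step was 97.2% at a tolerance of 0.02. The other alternatives, among them fewer or more arm peaks of like width and leaving out chromosome 4, gave values inside the intervals. No paired analysis was possible because the 1 list holds no values per library, and no replicate could be left out. Depth is unknown, so a region with no peak cannot be told apart from one with too few reads.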
